A study of Homo sapiens with 60 samples.

Results

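The genes described here are 35 genes of the hypoxia response and of glycolysis, found by their symbols among the 60675 genes of a deposited RNA-seq table of HT29 cells, a human colorectal adenocarcinoma line. Cells had been treated for 24 h, and 60 libraries in 21 groups were used. The PI3K inhibitors wortmannin and LY294002 were each given at 10 µM. Water extracts of Poria Cocos, Atractylodis Rhizoma, Glycyrrhizae Radix, Panax Ginseng, Angelicae Gigantis Radix and Paeoniae Radix were each given at 20, 100 and 500 µg/mL, and the vehicle group is labelled 0.1% DMSO, whereas the series text gives 2%. For any extract with an IC20 (the concentration giving 20% inhibition) below 500 µg/mL that text describes lower doses, whereas every label states one of the doses above. Doses here are as labelled. Groups held 3 libraries, except the 3 Paeoniae groups with 2, and the labels do not say whether libraries of a group came from separate cultures, so p-values measure the spread between these libraries, which may be technical. All groups share the same line, culture time and library kit. All sample titles name BatchA. Vehicle codes begin with an A that all other codes lack, so any treatment against vehicle also compares these codes. What the A marks is not stated in the labels. By their first number the sample codes fall into 4 sets, one holding vehicle and both inhibitors and each of the others a pair of extracts. An extract set against vehicle is therefore also a code set against another, and these cannot be told apart. The highest dose of an extract set against its lowest, and the extracts of a pair against each other, avoid this. Only the vehicle labels name DMSO, and whether treated cells also received it is not stated in the labels. Treatments against vehicle may therefore also compare solvents.

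Glycolysis turns glucose into pyruvate. Its investment steps, in which hexokinase and phosphofructokinase spend ATP, also include glucose phosphate isomerase, aldolase and triose phosphate isomerase. Its payoff steps run from GAPDH to pyruvate kinase and regain ATP, and lactate dehydrogenase A returns pyruvate to lactate. When oxygen is low, the hypoxia-inducible factors HIF-1 and HIF-2 escape prolyl hydroxylation and degradation and bind short DNA elements near many of these genes. They also bind near genes for glucose uptake (SLC2A1), lactate export (SLC16A3), acid handling (CA9), mitophagy (BNIP3, BNIP3L) and collagen hydroxylation (P4HA1, P4HA2). PI3K signalling through AKT and mTOR is known to raise glucose uptake and the synthesis of HIF-1α in tumour cells that have normal oxygen. None of the labels names a low-oxygen culture.

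The core of the HIF-binding element is ACGTG or GCGTG. The 250 bases before the RefSeq transcription starts (GRCh38.p14) were searched for these letters on both strands. A CACGTG palindrome holds the core on both strands and is at the same time the E-box letter string bound by MYC and other factors, so it counts 2 matches. At least 1 match stood in a window of 26 of the 31 listed genes that had one (83.9%), against 56.8% of 15843 protein-coding genes. Counted by window, it stood in 67.3% of 55 windows of the listed genes, against 49.3% of 22199 windows of protein-coding genes and 43.2% of all 35116 windows. Windows of the genes with the largest falls (LDHA, HK2) and the largest rises (P4HA2, ENO2) under LY294002 among genes with a window are given to set the genes that moved in opposite directions beside each other. They were chosen after the values were seen, and where a gene has several starts the window with most matches is given. Capitals mark the core, read on either strand.
LDHA: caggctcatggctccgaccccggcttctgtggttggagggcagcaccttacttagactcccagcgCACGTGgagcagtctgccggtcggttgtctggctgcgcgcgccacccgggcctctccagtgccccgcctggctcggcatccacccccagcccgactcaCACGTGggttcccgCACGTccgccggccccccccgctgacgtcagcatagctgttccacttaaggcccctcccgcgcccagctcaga
HK2: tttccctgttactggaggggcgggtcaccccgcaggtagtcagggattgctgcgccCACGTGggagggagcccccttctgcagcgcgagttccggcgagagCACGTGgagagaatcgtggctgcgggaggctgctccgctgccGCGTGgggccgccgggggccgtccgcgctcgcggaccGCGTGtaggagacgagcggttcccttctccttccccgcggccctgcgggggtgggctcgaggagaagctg
P4HA2: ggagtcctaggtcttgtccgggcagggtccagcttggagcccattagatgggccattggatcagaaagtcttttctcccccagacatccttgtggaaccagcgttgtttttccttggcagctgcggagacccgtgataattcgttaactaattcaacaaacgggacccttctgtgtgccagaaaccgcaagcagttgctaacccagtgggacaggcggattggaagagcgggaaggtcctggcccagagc
ENO2: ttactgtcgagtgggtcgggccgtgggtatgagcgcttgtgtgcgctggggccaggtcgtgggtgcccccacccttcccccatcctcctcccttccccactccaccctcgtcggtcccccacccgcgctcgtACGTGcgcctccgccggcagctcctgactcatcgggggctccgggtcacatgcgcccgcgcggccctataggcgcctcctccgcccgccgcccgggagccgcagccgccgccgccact
The LDHA window (chr11:18394313-18394562, plus strand) held 5 matches and the HK2 window (chr2:74834920-74835169, plus strand) held 6. The P4HA2 window (chr5:132227092-132227341, minus strand) held 0 and the ENO2 window (chr12:6914330-6914579, plus strand) held 1. Counted alike, other genes called lower under LY294002 held 3 (PFKP), 2 (ENO1, GAPDH, ALDOA, TPI1, ERO1A), 1 (GPI, HK1, CA9) or 0 (PKM, PGAM1). Other genes called higher held 5 (ALDOC), 3 (SLC16A3), 2 (MXI1), 1 (KDM3A, PFKL) or 0 (SLC2A1). The windows shown thus do not stand for all called genes. A match is a letter string in this window and says nothing of binding, and its absence says nothing of the factor. SLC2A3, VEGFA, NDRG1 and BNIP3L had no window.

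Levels are given as CPM, the counts of a gene scaled to a common library size, after TMM scaling, a correction for differences in RNA composition between libraries. Library totals ran between 20431980 and 35477712 expected counts. Over all libraries GAPDH averaged 3555 CPM, PKM 2477, ENO1 1545, ALDOA 1184 and LDHA 921 CPM. Divided by the length of their joined exons, which lets genes be compared with each other, the order was GAPDH at 1600 CPM per kb, PKM at 748, ENO1 at 643, ALDOA at 492, TPI1 at 319 and LDHA at 310 CPM per kb. On the same scale the minor isozymes were low, with ALDOC at 9.48, HK2 at 9.27 and ENO2 at 5.71 CPM per kb, and SLC2A1, the main glucose transporter in most tumour cells, stood at 131 CPM per kb. SLC2A3, a second glucose transporter, had no count in 60 of 60 libraries, which allows up to 0.147 CPM in the shallowest library, counting error only. It was not tested, so the counts of listed genes are out of 34. ANKRD37 (0.787 CPM), BNIP3 (2.78), ADM (3.60) and PFKFB4 (3.78) were low, and differences in them are measured poorly. Pseudogenes named for BNIP3 sum to 79.9% of its level, so its reads are uncertain. The corresponding share is at most 0.417% for 12 other listed genes with named pseudogenes. For SLC2A3, itself at 0, the 3 pseudogenes named for it summed to 0.0751 CPM, so which of them reads belong to is uncertain. Antisense genes overlap 22 of the 35, and how strand was used in counting is not given in the sources used here, so reads of a gene and of its antisense partner cannot be told apart there.

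The summed level of 15 enzymes from hexokinase to lactate dehydrogenase (HK1, HK2, GPI, PFKP, PFKL, ALDOA, ALDOC, TPI1, GAPDH, PGK1, PGAM1, ENO1, ENO2, PKM and LDHA) gives a first view of all groups. It was 10000, 9984 and 9800 CPM in the LY294002 libraries and 10610, 10640 and 11190 CPM in the wortmannin libraries, against 12580, 12480 and 12610 CPM in vehicle. Neither inhibitor group overlapped vehicle. Poria at 500 µg/mL reached 13960, 14210 and 13470 CPM and Glycyrrhizae at 500 µg/mL 13410, 13100 and 13300 CPM, both above every vehicle library. The other 16 extract groups ranged between 11810 and 13030 CPM. GAPDH and PKM make up much of this sum. The RNA came from whole cultures, so fewer cells of a kind and less RNA per cell cannot be told apart.

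**Figure D1:**
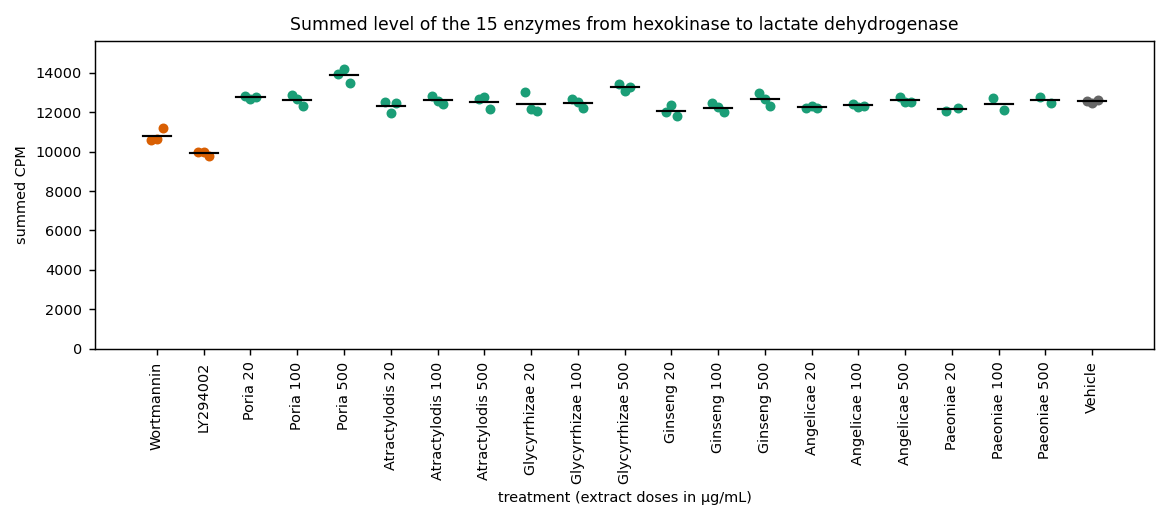
Summed CPM of the 15 enzymes from hexokinase to lactate dehydrogenase in each of 60 libraries (points), by group, with vehicle at the right. The 3 LY294002 libraries lie at or below 10000 CPM and the 3 wortmannin libraries at or below 11190 CPM, under all others, and the highest point, at 14210 CPM, is a Poria 500 µg/mL library.

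LY294002, an inhibitor of PI3K and related kinases, lowered most glycolytic enzymes and raised a different set of hypoxia-responsive genes. Of the 34 genes, 13 fell and 10 rose against vehicle (edgeR quasi-likelihood test, adjusted p under 0.05 over 16767 genes). Across all genes 39.2% were called, 18.7% higher and 20.5% lower, so the share of listed genes called is to be read against that high background. The 15 enzymes accounted for 11 of the falls and 3 of the rises (median log2 fold change −0.29). The 19 other genes held 2 falls and 7 rises (median 0.12). Over all 34 the median was −0.02, against 0.007 over all genes tested.

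Among the enzymes of the investment steps, HK2, the inducible hexokinase of tumour cells, had 42.8, 37.7 and 34.8 CPM in LY294002 cells, against 55.0, 55.0 and 50.6 CPM in vehicle. It fell by 0.48 ± 0.08 on the log2 scale (SE, adjusted p = 2.14e-06, edgeR). GPI, which converts glucose 6-phosphate to fructose 6-phosphate, had 587, 553 and 577 CPM in LY294002 cells, against 746, 726 and 728 CPM in vehicle, a log2 fold change of −0.36 ± 0.03 (adjusted p = 1.05e-14). ALDOA, the main aldolase, averaged 973 ± 6.22 CPM in LY294002 cells and 1202 ± 8.94 CPM in vehicle (SD, n = 3 each, edgeR log2 fold change −0.31 ± 0.03, adjusted p = 3.93e-10). In each of these the groups did not overlap. HK1, PFKP and TPI1 fell with log2 changes between −0.29 and −0.16. ALDOC, a second aldolase, moved the other way, with 23.6, 23.2 and 24.2 CPM in LY294002 cells, against 17.5, 20.1 and 19.3 CPM in vehicle (0.32 ± 0.06, adjusted p = 3.98e-05). PFKL, the liver-type phosphofructokinase, was also called higher (0.15 ± 0.05, adjusted p = 0.0196), but that call was lost without vehicle replicate 3 (adjusted p = 0.0857) and without LY294002 replicate 3 (0.101).

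In the later steps, LDHA had the largest fall of the whole list. Its libraries held 642, 616 and 661 CPM in LY294002 cells, against 957, 929.6 and 962 CPM in vehicle, a log2 fold change of −0.57 ± 0.04 (adjusted p = 5.77e-18, edgeR). The highest LY294002 library lay far under the lowest vehicle library. ENO1, the main enolase, had 1038, 1029 and 1151 CPM in LY294002 cells, against 1566, 1438 and 1324 CPM in vehicle (−0.43 ± 0.06, adjusted p = 5.12e-08), while its neuronal paralogue ENO2 had 24.3, 24.3 and 22.4 CPM in LY294002 cells, against 16.8, 17.7 and 14.2 CPM in vehicle (0.54 ± 0.10, adjusted p = 1.19e-05). Both enolases passed the test and changed in opposite directions. GAPDH averaged 2992 ± 279 CPM in LY294002 cells and 3810 ± 198 CPM in vehicle (SD, n = 3 each, edgeR log2 fold change −0.35 ± 0.07, adjusted p = 7.6e-05), and PKM averaged 2003 ± 16.3 CPM in LY294002 cells and 2534 ± 27.4 CPM in vehicle (−0.34 ± 0.04, adjusted p = 4.89e-09). PGK1, the enzyme between GAPDH and PGAM1, averaged 481 ± 42.9 CPM in LY294002 cells and 499 ± 39.4 CPM in vehicle and did not pass the test (adjusted p = 0.556). PGAM1 was called lower with overlapping groups, and its call was lost without vehicle replicate 1 (adjusted p = 0.0823) and without LY294002 replicate 2 (0.0611).

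Genes outside the enzymes held 7 of the 10 rises. BNIP3L, which marks mitochondria for mitophagy, had 25.4, 28.5 and 28.01 CPM in LY294002 cells, against 16.4, 14.2 and 16.45 CPM in vehicle, a log2 fold change of 0.80 ± 0.08 (adjusted p = 1.12e-11, edgeR). NDRG1, a stress-responsive gene, had 26.8, 30.7 and 28.8 CPM in LY294002 cells, against 16.7, 16.9 and 16.7 CPM in vehicle (0.78 ± 0.08, adjusted p = 5.92e-11). P4HA2, a collagen prolyl 4-hydroxylase subunit, had 24.3, 27.0 and 32.8 CPM in LY294002 cells, against 18.5, 17.8 and 13.9 CPM in vehicle (0.74 ± 0.09, adjusted p = 3.8e-09). In all 3 genes every LY294002 library lay above every vehicle library. MXI1, an antagonist of MYC, had 37.3, 40.1 and 35.8 CPM in LY294002 cells, against 28.04, 27.7 and 27.4 CPM in vehicle (0.44 ± 0.05, adjusted p = 7.29e-10). KDM3A, a histone H3 lysine demethylase, averaged 47.4 ± 0.653 CPM in LY294002 cells and 39.2 ± 1.48 CPM in vehicle (SD, n = 3 each, edgeR log2 fold change 0.27 ± 0.06, adjusted p = 9.55e-05). BNIP3 and P4HA1, close relatives of BNIP3L and P4HA2, were not called. BNIP3, whose reads are uncertain, averaged 2.61 ± 0.289 CPM in LY294002 cells and 2.77 ± 0.200 CPM in vehicle (adjusted p = 0.697), and P4HA1 averaged 35.5 ± 0.919 CPM in LY294002 cells and 33.0 ± 0.227 CPM in vehicle (adjusted p = 0.129).

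Some textbook HIF targets fell or did not pass the test. CA9, the membrane carbonic anhydrase used as a hypoxia marker, had 23.6, 22.1 and 25.1 CPM in LY294002 cells, against 34.9, 28.8 and 32.9 CPM in vehicle, a log2 fold change of −0.45 ± 0.07 (adjusted p = 2.87e-07, edgeR). ERO1A, an endoplasmic reticulum oxidase, was the other gene outside the enzymes that fell, by 0.20 on the log2 scale. VEGFA, the angiogenic factor, averaged 64.3 ± 2.75 CPM in LY294002 cells and 67.8 ± 0.723 CPM in vehicle (SD, n = 3 each, edgeR adjusted p = 0.294), and ADM, PDK1, EGLN3, PFKFB3, PFKFB4, INSIG2 and ANKRD37 were likewise not called. SLC2A1 and SLC16A3 were called higher. The SLC2A1 call was lost without vehicle replicate 3 (adjusted p = 0.233) and without LY294002 replicate 1 (0.119). SLC16A3 had 39.3, 40.7 and 56.2 CPM in LY294002 cells, against 40.3, 37.1 and 32.8 CPM in vehicle, and its call was lost without LY294002 replicate 3 (0.486), the highest library, and without vehicle replicate 2 (0.0717) or 3 (0.185). Its LY294002 mean of 45.4 CPM lay within the means of the 18 extract groups (40.8 to 48.4 CPM). All of these were above the vehicle mean of 36.7 CPM, so the SLC16A3 rise is not particular to LY294002.

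**Figure D2:**
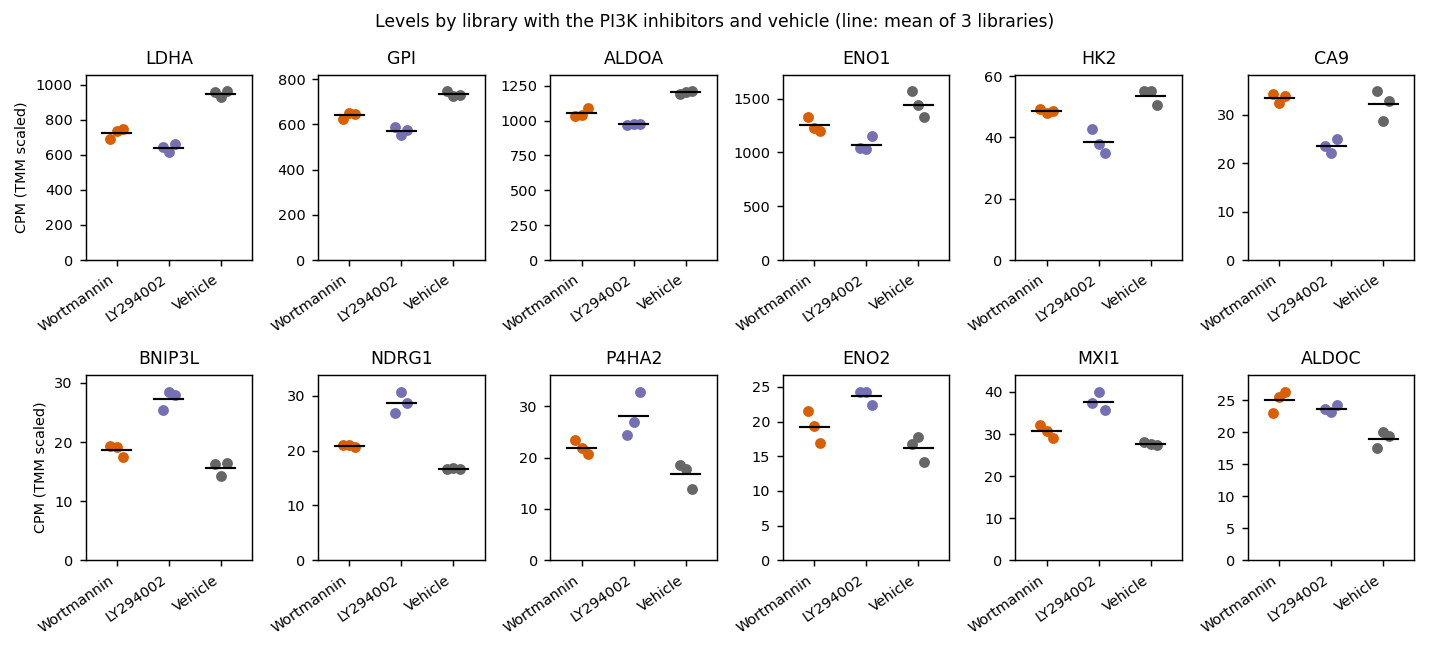
CPM of 12 genes in each library of wortmannin, LY294002 and vehicle (points, n = 3 each), with the group mean as a line and an axis for each gene. LDHA, GPI, ALDOA and ENO1 are lowest in LY294002, with LDHA at 640 CPM on average against 950 CPM in vehicle, whereas BNIP3L, NDRG1 and P4HA2 are highest in LY294002.

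Wortmannin, a covalent PI3K inhibitor, gave fewer calls. Of the 34 genes, 8 fell and 5 rose against vehicle. Across all genes 13.7% were called, 6.26% higher and 7.46% lower. The 15 enzymes held 7 of the falls and 1 of the rises (median log2 fold change −0.16), and the other 19 genes 1 fall and 4 rises (median 0.11). Over all 34 the median was −0.04, against 0 over all genes. The largest fall among called genes was that of LDHA, with 693, 737 and 748 CPM in wortmannin cells, against 957, 929.6 and 962 CPM in vehicle (−0.39 ± 0.04, adjusted p = 1.17e-11, edgeR). GPI had 625, 652 and 644 CPM in wortmannin cells, against 746, 726 and 728 CPM in vehicle (−0.20 ± 0.03, adjusted p = 8.53e-07). Both genes were below vehicle in 3 of 3 libraries. TPI1 averaged 589.9 ± 3.48 CPM in wortmannin cells and 689.9 ± 25.0 CPM in vehicle (SD, n = 3 each, edgeR log2 fold change −0.23 ± 0.04, adjusted p = 0.00018). PKM and ALDOA, at −0.21 ± 0.04 (adjusted p = 0.000258) and −0.19 ± 0.03 (adjusted p = 5.55e-05), completed the falls that were called whichever library was left out.

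ALDOC had 23.0, 25.5 and 26.3 CPM in wortmannin cells, against 17.5, 20.1 and 19.3 CPM in vehicle (0.39 ± 0.06, adjusted p = 6.56e-06, edgeR), and NDRG1 had 20.95, 20.95 and 20.7 CPM in wortmannin cells, against 16.7, 16.9 and 16.7 CPM in vehicle (0.32 ± 0.08, adjusted p = 0.00607). These 2 rises were called whichever library was left out. The rise of P4HA2 (0.39 ± 0.09, adjusted p = 0.00225) was lost without vehicle replicate 3 (0.0534), and that of BNIP3L (0.25 ± 0.08, adjusted p = 0.0293) without vehicle replicate 2 (0.206), wortmannin replicate 1 (0.118) or wortmannin replicate 2 (0.101). P4HA2 averaged 21.9 CPM in wortmannin cells, against 16.7 CPM in vehicle and means of 18.4 to 20.6 CPM in the 18 extract groups, all above vehicle. The falls of GAPDH, ENO1 and VEGFA and the rise of MXI1 were each lost without at least 3 different single libraries, at adjusted p of up to 0.158, 0.137, 0.159 and 0.252. The count of called genes lay between 8, without wortmannin replicate 2, and 15, and it was 8 in a fit of these 6 libraries alone. With the replicate number as a block in the edgeR fit of all 60 libraries, the count was 16. The genes gained were ENO2 (adjusted p = 0.0146), PDK1 (0.0474) and PFKFB4 (0.05 after rounding). All 3 pairs of same-numbered wortmannin and vehicle libraries correlated above 0.1, but the block spans all groups and is not a paired test of these alone. CA9 had 34.3, 32.5 and 33.8 CPM in wortmannin cells, against 34.9, 28.8 and 32.9 CPM in vehicle, and HK2 had 49.2, 48.1 and 48.6 CPM in wortmannin cells, against 55.0, 55.0 and 50.6 CPM in vehicle. Neither passed the test (adjusted p = 0.617 and 0.253).

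**Figure D3:**
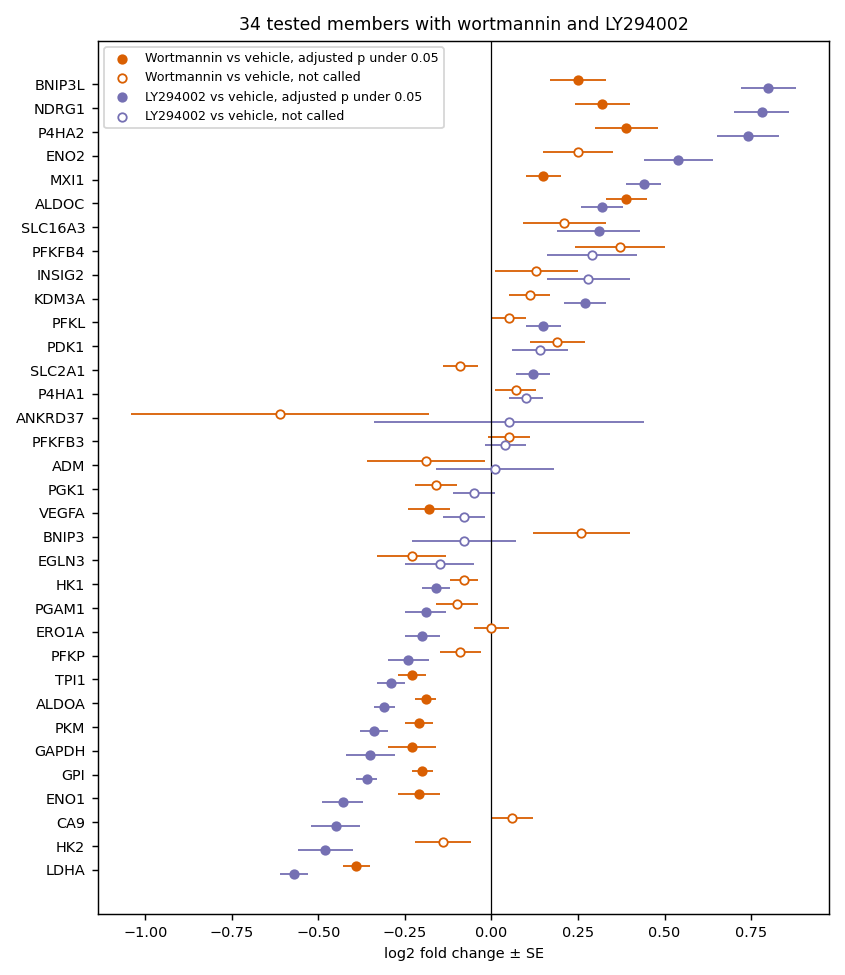
Log2 fold change against vehicle (± SE) of the 34 tested genes in wortmannin and in LY294002, ordered by the LY294002 value, filled where the edgeR adjusted p is under 0.05. Values run between −0.57 (LDHA) and 0.80 (BNIP3L) for LY294002. The inhibitors share the vehicle libraries.

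Set directly against each other at the same dose and time, the inhibitors differed in 16 of the 34 genes, 9 higher and 7 lower in wortmannin than in LY294002. The labels do not give how far PI3K was inhibited in either group, so equal dose need not be equal inhibition. Across all genes 22.2% were called, 12.7% higher and 9.49% lower. The 15 enzymes held 7 of the higher calls and 1 of the lower, and the median over all 34 was 0.03, against −0.003 over all genes. Of the genes higher in wortmannin, CA9 differed most, with 34.3, 32.5 and 33.8 CPM in wortmannin cells, against 23.6, 22.1 and 25.1 CPM in LY294002 cells (log2 fold change 0.51 ± 0.07, adjusted p = 4.67e-08, edgeR). HK2 (0.34 ± 0.08, adjusted p = 0.000933), ENO1 (0.22 ± 0.06, adjusted p = 0.00381), LDHA (0.18 ± 0.04, adjusted p = 8.6e-05) and GPI (0.16 ± 0.03, adjusted p = 1.35e-05) were also higher in wortmannin. BNIP3L (−0.55 ± 0.08, adjusted p = 2.49e-07), NDRG1 (−0.46 ± 0.08, adjusted p = 1.31e-05) and MXI1 (−0.30 ± 0.05, adjusted p = 9.44e-06) were lower in wortmannin. SLC2A1 had 488, 491 and 502 CPM in wortmannin cells, against 586, 567 and 563 CPM in LY294002 cells (−0.21 ± 0.05, adjusted p = 0.000343). P4HA2 (−0.35 ± 0.09, adjusted p = 0.00222) was called unless LY294002 replicate 3 was left out (0.0815). ALDOC, at 24.9 ± 1.73 CPM in wortmannin cells and 23.7 ± 0.501 CPM in LY294002 cells (SD, n = 3 each), was not called between the inhibitors (edgeR adjusted p = 0.422). In a fit of these 6 libraries alone 6 genes were called. The calls of ENO1, LDHA, GPI, ERO1A and P4HA2 were not among them, with adjusted p between 0.0726 and 0.107. Nor were those of ENO2 (0.0768), PFKP (0.111), KDM3A (0.18), PKM (0.229) and ALDOA (0.243). Of 6 refits that each left out 1 library, KDM3A was lost in 5, ENO2 and PFKP in 4 each, PKM in 2 and ALDOA in 1.

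Some epithelial and secreted markers moved with the inhibitors too. The summed level of 8 colon epithelium markers lay between 11400 and 16400 CPM over all libraries. Of these 8, 6 rose and 1 fell in LY294002, where 39.2% of all genes were called, 18.7% higher. In wortmannin 3 of the 8 rose, where 13.7% of all genes were called, 6.26% higher. KRT18 averaged 5375 ± 371 CPM in LY294002 cells and 4482 ± 96.4 CPM in wortmannin cells, against 3769 ± 91.8 CPM in vehicle (SD, n = 3 each, edgeR log2 fold changes 0.51 and 0.25, adjusted p = 6.19e-16 and 1.35e-06). KRT18 has 68 named pseudogenes, whose level was not summed, and KRT8 overlaps it on the other strand. Summed endothelial markers stayed at or below 2.35 CPM and fibroblast markers at or below 2.98 CPM, while leukocyte markers summed to 1250 to 2550 CPM, nearly all of it lysozyme (LYZ), and PTPRC averaged 0.0241 CPM. LYZ averaged 2178 ± 318 CPM in LY294002 cells and 1856 ± 36.1 CPM in wortmannin cells, against 1402 ± 32.2 CPM in vehicle (0.64 and 0.41, adjusted p = 7.83e-11 and 1.41e-05, edgeR). The part of these shifts in the glycolytic values was not tested.

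Among the extracts, Poria Cocos at 500 µg/mL gave the most calls in the list. Against vehicle 10 of the 34 genes rose and 0 fell (edgeR; at unadjusted p under 0.05, 14 were higher and 1 was lower; DESeq2 called 11 higher and 0 lower). Across all genes 7.49% were called, 4.6% higher and 2.89% lower. Of the 15 enzymes 8 rose. Median log2 fold changes were 0.16 for these enzymes and 0.14 for all 34 genes, against −0.0093 over all genes. PFKP, the platelet-type phosphofructokinase, had 181, 172 and 160.4 CPM in Poria cells, against 142, 139.8 and 128 CPM in vehicle (0.33 ± 0.05, adjusted p = 5.82e-05). SLC2A1 had 641, 615 and 617 CPM in Poria cells, against 545, 539 and 496 CPM in vehicle (0.25 ± 0.05, adjusted p = 0.000248). LDHA had 1031, 1104 and 1096 CPM in Poria cells, against 957, 929.6 and 962 CPM in vehicle (0.18 ± 0.03, adjusted p = 0.000477, edgeR), and GPI had 844, 805 and 807 CPM in Poria cells, against 746, 726 and 728 CPM in vehicle (0.16 ± 0.03, adjusted p = 0.00012). In all 4 genes every Poria library lay above every vehicle library, and each was called whichever library was left out.

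The other 6 Poria calls were each lost when some single library was left out. ENO1 (0.26 ± 0.06, adjusted p = 0.00247, edgeR) was lost without vehicle replicate 3 (0.0581), and HK2 (0.29 ± 0.08, adjusted p = 0.012) without vehicle replicate 3 (0.0929) or Poria 500 µg/mL replicate 1 (0.0643). PGAM1, TPI1, ALDOA and PFKFB3 were each lost without at least 3 different libraries, at adjusted p of up to 0.155, 0.1, 0.093 and 0.415. Leaving out vehicle replicate 2 gave 6 calls, leaving out vehicle replicate 3 gave 4 and leaving out Poria 500 µg/mL replicate 1 gave 5, against 10 with all libraries. A fit of these 6 libraries alone called 3, where LDHA and GPI had adjusted p of 0.0803 and 0.103. BNIP3L and MXI1, which rose under LY294002, were not called with Poria. BNIP3L averaged 14.1 ± 1.01 CPM in Poria cells and 15.7 ± 1.28 CPM in vehicle (SD, n = 3 each, edgeR adjusted p = 0.299), and MXI1 averaged 27.3 ± 0.722 CPM in Poria cells and 27.7 ± 0.317 CPM in vehicle (adjusted p = 0.841).

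Within the Poria set, 500 against 20 µg/mL gave 6 genes higher and 0 lower (edgeR; at unadjusted p under 0.05, 12 higher and 0 lower; DESeq2 7 higher and 0 lower). Across all genes 5.51% were called, 3.21% higher and 2.3% lower, and the median was 0.08 over the 34 genes and −0.0021 over all genes. PFKP had 181, 172 and 160.4 CPM in cells given the highest dose, against 147, 132 and 137 CPM in those given the lowest (0.31 ± 0.05, adjusted p = 0.000185). SLC2A1 had 641, 615 and 617 CPM in the high-dose cells, against 544, 542 and 518 CPM in the low-dose cells (0.22 ± 0.05, adjusted p = 0.000959). LDHA had 1031, 1104 and 1096 CPM in the high-dose cells, against 948, 939.9 and 937 CPM in the low-dose cells (0.19 ± 0.03, adjusted p = 0.000243, edgeR). The doses did not overlap in these 3 genes. At 100 µg/mL PFKP had 152, 139 and 144 CPM and LDHA 995, 971 and 911 CPM, and 0 of the 34 genes were called against vehicle by edgeR or DESeq2 at that dose (3 at unadjusted p under 0.05), where 0.0417% of all genes were called. GPI (0.12 ± 0.03, adjusted p = 0.00616), HK2 (0.26 ± 0.08, adjusted p = 0.0271) and PFKFB3 were also called at 500 against 20 µg/mL. These 3 calls were lost without Poria 500 µg/mL replicate 1, at adjusted p of 0.0586, 0.105 and 0.236, which left 3. Of 6 refits that each left out 1 library, HK2 was lost in 4, PFKFB3 in 5 and GPI in 1. In a fit of these 6 libraries alone 2 genes were called, and LDHA had an adjusted p of 0.0668.

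Against Atractylodis Rhizoma at 500 µg/mL, the other extract of the same code set, Poria at 500 µg/mL was higher in 7 genes and lower in 0 (edgeR; at unadjusted p under 0.05, 11 higher and 0 lower; DESeq2 7 higher and 0 lower). Across all genes 1.85% were called, 1.1% higher and 0.751% lower. SLC2A1 had 641, 615 and 617 CPM with Poria, against 552, 523 and 492 CPM with Atractylodis (0.26 ± 0.05, adjusted p = 0.000225, edgeR). It was the 1 call of the 7 that held whichever library was left out, and its adjusted p was 0.0639 in a fit of these 6 libraries alone, which called 0. NDRG1 had 18.3, 19.4 and 17.4 CPM with Poria, against 14.2, 14.0 and 15.0 CPM with Atractylodis (0.35 ± 0.08, adjusted p = 0.0141), and this call was lost without Poria replicate 2 (0.107), Atractylodis replicate 1 (0.06) or Atractylodis replicate 2 (0.0732). PFKP, PKM, LDHA, ALDOA and GPI had log2 fold changes between 0.13 and 0.24. The count was 4 without Poria replicate 1 and 3 without Poria replicate 2, Atractylodis replicate 1 or Atractylodis replicate 3.

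Glycyrrhizae Radix at 500 µg/mL raised 5 of the 34 genes and lowered 0 against vehicle (edgeR; at unadjusted p under 0.05, 10 higher and 0 lower; DESeq2 7 higher and 0 lower). Across all genes 6.91% were called, 3.65% higher and 3.26% lower, and the median was 0.08 over the 34 genes and −0.0045 over all. PFKP had 166, 165 and 160.0 CPM in Glycyrrhizae cells, against 142, 139.8 and 128 CPM in vehicle (0.26 ± 0.05, adjusted p = 0.0014, edgeR), and was the call that held whichever library was left out. SLC16A3, the exporter of lactate, had 49.8, 49.4 and 45.7 CPM in Glycyrrhizae cells, against 40.3, 37.1 and 32.8 CPM in vehicle (0.40 ± 0.12, adjusted p = 0.0328). ENO2, PGAM1 and GPI were called at log2 changes between 0.10 and 0.32. Without vehicle replicate 3 the adjusted p of SLC16A3 was 0.208, of ENO2 0.287, of PGAM1 0.274 and of GPI 0.0731. Leaving out vehicle replicate 2 gave 2 calls, leaving out vehicle replicate 3 or Glycyrrhizae 500 µg/mL replicate 1 gave 1 and leaving out Glycyrrhizae 500 µg/mL replicate 2 gave 2, against 5 with all libraries, and 2 in a fit of these 6 libraries alone. SLC2A1 averaged 524 ± 19.3 CPM in Glycyrrhizae cells and 527 ± 26.8 CPM in vehicle (SD, n = 3 each, edgeR adjusted p = 0.944).

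Within its code set, Glycyrrhizae at 500 against 20 µg/mL gave 2 genes higher and 0 lower (edgeR; at unadjusted p under 0.05, 8 higher and 0 lower; DESeq2 4 higher and 0 lower), with 3.85% of all genes called, 1.83% higher and 2.02% lower. PFKP had 166, 165 and 160.0 CPM in the high-dose cells, against 149.7, 139 and 136 CPM in the low-dose cells (0.21 ± 0.05, adjusted p = 0.0178, edgeR), and ALDOA had 1287, 1244 and 1294 CPM in the high-dose cells, against 1209, 1147 and 1133 CPM in the low-dose cells (0.13 ± 0.03, adjusted p = 0.0156). The doses did not overlap in either gene. SLC16A3 was not called, with 49.8, 49.4 and 45.7 CPM in the high-dose cells, against 47.7, 44.8 and 52.7 CPM in the low-dose cells. Without Glycyrrhizae 500 µg/mL replicate 1 or Glycyrrhizae 20 µg/mL replicate 2 or 3, 0 genes were called, with PFKP at adjusted p of 0.0772, 0.0606 and 0.134, and without Glycyrrhizae 500 µg/mL replicate 3 the count was 1. Against Panax Ginseng at 500 µg/mL, the extract of the same set, PFKP was the 1 gene called, with 166, 165 and 160.0 CPM in Glycyrrhizae cells, against 152, 138 and 142 CPM in Ginseng cells (0.19 ± 0.05, adjusted p = 0.0495, edgeR). Across all genes 2.48% were called there, 1.13% higher and 1.35% lower. It was lost without any of the Glycyrrhizae libraries or Ginseng replicate 2 or 3, at adjusted p of up to 0.211, and in a fit of these 6 libraries alone (0.0833).

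In the other 21 comparisons 0 of the 34 genes were called by edgeR. Those were the 100 and 20 µg/mL doses of each extract and the 500 µg/mL dose of Atractylodis, Ginseng, Angelicae and Paeoniae against vehicle, 500 against 20 µg/mL of the same 4 extracts, and Angelicae against Paeoniae. Between 1 and 7 of the 34 had an unadjusted p under 0.05 in each, and DESeq2 called 0 except ENO1 in Angelicae 500 µg/mL (adjusted p = 0.048) and SLC16A3 in Glycyrrhizae 20 µg/mL (adjusted p = 0.0391). The share of all genes called was 0.25% in Atractylodis, 0.352% in Ginseng and 0.161% in both Angelicae and Paeoniae at 500 µg/mL against vehicle. At 100 µg/mL it was 0.0417% in Poria, 0.364% in Atractylodis, 0.34% in Glycyrrhizae, 0% in Ginseng, 0.00596% in Angelicae and 0.0477% in Paeoniae, and at 20 µg/mL 0.137% in Atractylodis, 0.37% in Glycyrrhizae, 0.173% in Angelicae and 0% in Poria, Ginseng and Paeoniae. Between doses it was 0.0179% in Angelicae, 0.0358% in Paeoniae and 0% in Atractylodis and Ginseng, and 0.0179% between Angelicae and Paeoniae. The count of 0 in the list lies near these shares. Without vehicle replicate 1 the count reached 1 in Ginseng 500 and Atractylodis 100 µg/mL, 2 in Angelicae 500 µg/mL and 3 in Glycyrrhizae 20 µg/mL. Some genes stood on the same side of the vehicle mean in 18 of 18 extract groups, which all share the 3 vehicle libraries. The share of all genes that did so was not counted, so this is no result about the list. SLC16A3 had extract means between 40.8 and 48.4 CPM, against 36.7 CPM in vehicle. ENO1 had 1503 to 1730 CPM in extracts, against 1442 CPM in vehicle, and P4HA2 18.4 to 20.6 CPM in extracts, against 16.7 CPM in vehicle. PGAM1, EGLN3 and INSIG2 were above the vehicle mean in 18 of 18 groups as well, and GAPDH was above it in 2 of 18. Vehicle replicate 3 was the lowest vehicle library in SLC16A3 (32.8 CPM), ENO1 (1324 CPM) and P4HA2 (13.9 CPM).

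**Figure D4:**
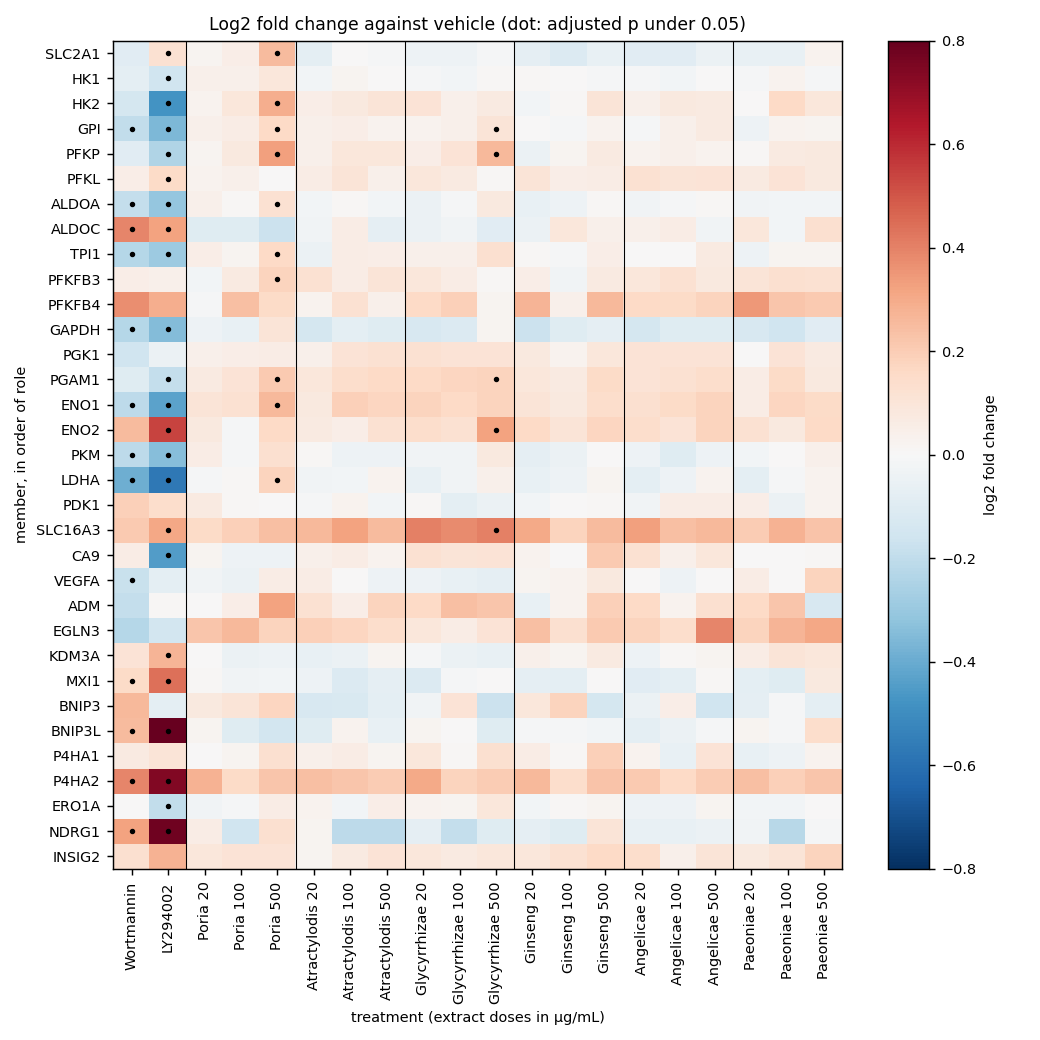
Log2 fold change against vehicle of 33 genes with a mean of at least 1 CPM (rows) in 20 treatments (columns), on a colour scale between −0.8 and 0.8, with a dot where the edgeR adjusted p is under 0.05. Dots stand in the columns of wortmannin (13), LY294002 (23), Poria 500 µg/mL (10) and Glycyrrhizae 500 µg/mL (5).

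Across the 21 group means the enzymes varied together more closely, by the median, than the rest of the list. The median Pearson r of log2 levels was 0.79 over the 105 pairs of enzymes, 0.07 over the 171 pairs of the other genes and 0 over the 285 mixed pairs. The mixed pairs hold strong values of both signs, such as LDHA with BNIP3L (−0.89) and with ERO1A (0.76). The enzyme pairs do as well. LDHA was negative with ALDOC (−0.85), ENO2 (−0.67) and PFKL (−0.49) and positive with the other enzymes. Genes outside the list were not compared in this way. The other genes include the poorly measured ANKRD37, BNIP3, ADM and PFKFB4. In the 18 extract groups alone the medians were 0.53, 0.07 and 0.08. LDHA was most like GPI (r = 0.98), ALDOA (0.96), TPI1 (0.95) and ENO1 (0.94) and least like BNIP3L (−0.89), ALDOC (−0.85) and P4HA2 (−0.82). These are descriptions over 21 groups that share libraries' scaling and, in large part, the inhibitor groups.

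Of 12 genes that encode HIF subunits or control them, 10 were tested. In LY294002 2 rose and 3 fell, in wortmannin 0 were called (edgeR), and in Poria 500 µg/mL 1 fell. The shares of all genes called were 39.2% in LY294002, 13.7% in wortmannin and 7.49% in Poria, and 5 of 10 in LY294002 is near its share. HIF1A, which encodes HIF-1α, averaged 121 ± 15.5 CPM in LY294002 cells and 126 ± 9.72 CPM in wortmannin cells, against 144 ± 7.97 CPM in vehicle (SD, n = 3 each). Its log2 fold change was −0.25 ± 0.07 in LY294002 (adjusted p = 0.00523, edgeR) and −0.18 ± 0.07 in wortmannin, which did not pass the test (adjusted p = 0.0875). MYC, a known regulator of glycolytic genes, averaged 301 ± 35.7 CPM in LY294002 cells and 324 ± 25.0 CPM in wortmannin cells. In vehicle it averaged 302 ± 5.00 CPM, and it was not called with either inhibitor (edgeR adjusted p = 0.961 and 0.438). These are RNA levels, and a part of HIF-1α or MYC in the glycolytic values was not tested.

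Glycolytic enzymes outside the list numbered 18, of which 12 were tested. In LY294002 2 rose and 4 fell, in wortmannin 1 rose and 2 fell, and in Poria 500 µg/mL 4 rose and 0 fell (edgeR), against 39.2%, 13.7% and 7.49% of all genes called. HKDC1, a hexokinase-like protein, averaged 19.5 ± 1.58 CPM in LY294002 cells, against 26.1 ± 0.655 CPM in vehicle (log2 fold change −0.42 ± 0.06, adjusted p = 6.32e-07, edgeR), and 33.2 ± 1.55 CPM in Poria cells against the same vehicle (0.35 ± 0.06, adjusted p = 0.000155). Of 28 further hypoxia targets 25 were tested, with 6 higher and 5 lower in LY294002, 1 higher and 2 lower in wortmannin, 4 higher and 1 lower in Poria 500 µg/mL, and 1 higher and 2 lower in Glycyrrhizae 500 µg/mL. With 39.2%, 13.7%, 7.49% and 6.91% of all genes called, the counts in LY294002 and wortmannin are near the background. NAMPT, the rate-limiting enzyme of NAD salvage, averaged 233 ± 6.76 CPM in Poria cells and 223 ± 7.92 CPM in Glycyrrhizae cells, against 168 ± 7.15 CPM in vehicle (SD, n = 3 each, edgeR log2 fold changes 0.47 and 0.41, adjusted p = 4.23e-11 and 5.45e-09). Within the Poria set it was 233 ± 6.76 CPM at 500 µg/mL and 177 ± 8.80 CPM at 20 µg/mL (0.40 ± 0.04, adjusted p = 8.58e-09).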

How the data were processed

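The authors trimmed and aligned the reads and estimated gene levels with FastQC 0.11.9, Trim Galore 0.6.5, STAR 2.7.3a and RSEM 1.3.3 on GRCh38, per the submitters' processing notes. The deposited values are RSEM expected counts per gene (24.2% of values above 0 are not whole) and were rounded to whole numbers. Of 273 columns in the table, 213 match no sample used and were not used. The kit was directional, per the labels' protocols. Neither the annotation release nor how strand was handled in counting is stated. Symbols, exon lengths and antisense overlaps were joined from GENCODE 29, and 57100 of 60675 genes had a symbol.

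Genes were kept by filterByExpr (minimum count 10, minimum total 15), leaving 16767. A quasi-likelihood model in edgeR 4.0.16 (limma 3.58.1, R 4.3.3) with TMM scaling gave 1 mean to each of 21 groups and 1 shared spread over 60 libraries (39 residual degrees of freedom, biological coefficient of variation 0.057). Within each of 30 comparisons p-values were Benjamini-Hochberg adjusted over all genes tested. The steps were tested on simulated data. No libraries were duplicates.

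The listed genes, the further lists and the tests were chosen with earlier results of these data known. Fold changes with SE and adjusted p are given for at most 8 called genes per direction and comparison, by size, at a mean of at least 5 CPM and with groups that do not overlap, and for genes of the other lists at most 3 per list and comparison. Exceptions are given as counts, ranges or adjusted p. Same-numbered libraries were checked for pairing: all 3 pairs correlated above 0.1 in wortmannin against vehicle (0.179 to 0.56) and in Poria against Atractylodis at 500 µg/mL (0.292 to 0.607), also in Ginseng 500 against 20 µg/mL (0.161 to 0.384). The pairing comes from these correlations, not from the labels. Alternatives were RLE scaling, no filter, a fit of the 2 groups alone, a replicate block over all 60 libraries, DESeq2 1.42.0 and leaving out each library.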

Additional observations from a re-analysis of the deposited data

How the results depend on the processing

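Over 913 refits of the 83 gene and comparison pairs called, 0 changed sign. Leaving out each library in turn kept 45 pairs called in every refit and lost 38 in at least 1. A fit of the 2 groups alone, which estimates the spread from at most 6 libraries, lost 42 of the 83, and calling without a filter on low counts lost 15. DESeq2 and RLE scaling each lost 1, MXI1 in wortmannin against vehicle. The replicate block, fitted over all 60 libraries, lost 0 of the 83. It gave 16 calls in wortmannin against vehicle, in place of 13, and moved a count by over 1.5 times once, in Angelicae 500 µg/mL against vehicle, where it called 1 gene in place of 0. Other lists were not refitted. The causes were not tested.

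The fit of the 2 groups alone called 8 genes in wortmannin against vehicle, 6 in wortmannin against LY294002, 3 in Poria 500 µg/mL against vehicle, 2 against Poria 20 µg/mL and 0 against Atractylodis, 2 in Glycyrrhizae 500 µg/mL against vehicle, 1 against Glycyrrhizae 20 µg/mL and 0 against Ginseng, and 1 each in Angelicae 20 and Glycyrrhizae 100 µg/mL against vehicle. Without the filter, counts against vehicle that are 0 with it were 1 in Angelicae 100, Angelicae 20, Atractylodis 20 and Ginseng 500 µg/mL, 2 in Atractylodis 100, Atractylodis 500 and Paeoniae 100 µg/mL, 3 in Angelicae 500, Ginseng 20 and Glycyrrhizae 100 µg/mL and 4 in Glycyrrhizae 20 µg/mL, most often SLC16A3 and ENO1. DESeq2 called 1 gene each in Angelicae 500 and Glycyrrhizae 20 µg/mL against vehicle, 2 in Glycyrrhizae against Ginseng and 4 in Glycyrrhizae 500 against 20 µg/mL.

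With 1 library left out, counts ranged between 8 and 15 in wortmannin against vehicle, 4 and 10 in Poria 500 µg/mL against vehicle, 3 and 7 against Poria 20 µg/mL, 3 and 6 against Atractylodis, 1 and 6 in Glycyrrhizae 500 µg/mL against vehicle, 0 and 3 against Glycyrrhizae 20 µg/mL and 0 and 1 against Ginseng. Against vehicle they ranged between 0 and 2 in Angelicae 500, 0 and 1 in Atractylodis 100 and Ginseng 500, and 0 and 3 in Glycyrrhizae 20 µg/mL.

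Medians of the log2 fold changes moved in 8 comparisons by more than their spread over libraries of both groups. Taken over the libraries of the first group alone, the rule used at first and changed after its result was seen, 17 would have moved. Against vehicle the ranges were −0.09 to 0.02 in LY294002, 0.04 to 0.09 in Angelicae, Ginseng and Paeoniae 500 µg/mL, 0.05 to 0.08 in Glycyrrhizae 500 µg/mL and 0.02 to 0.06 in Paeoniae 100 µg/mL. They were 0.03 to 0.06 in Ginseng 500 against 20 µg/mL and 0.01 to 0.05 in wortmannin against LY294002 (0.04 without the filter).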

Other observations

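The pentose phosphate pathway branches from glycolysis at glucose 6-phosphate and supplies NADPH and ribose. All 8 genes listed for it were tested, and at 500 µg/mL of Poria Cocos 5 rose and 1 fell against vehicle (edgeR, adjusted p under 0.05), where 7.49% of all genes were called. TKT, transketolase, averaged 779 ± 32.1 CPM in Poria cells and 579 ± 7.15 CPM in vehicle (SD, n = 3 each, edgeR log2 fold change 0.43 ± 0.04, adjusted p = 1.46e-10). H6PD, the enzyme of the endoplasmic reticulum, averaged 29.5 ± 1.65 CPM in Poria cells and 37.1 ± 1.21 CPM in vehicle (−0.33 ± 0.07, adjusted p = 0.00294). Within the Poria set at 500 against 20 µg/mL, TKT averaged 779 ± 32.1 CPM in the high-dose cells and 601 ± 2.15 CPM in the low-dose cells (0.37 ± 0.04, adjusted p = 9.38e-09, edgeR). Glycyrrhizae at 500 µg/mL also had 5 higher and 1 lower, where 6.91% of all genes were called, with TKT at 654 ± 12.3 CPM in Glycyrrhizae cells and 579 ± 7.15 CPM in vehicle (0.18 ± 0.04, adjusted p = 0.0044). In LY294002, where 39.2% of all genes were called, 3 rose and 3 fell, among the rises H6PD (0.44 ± 0.07, adjusted p = 2.3e-06, edgeR).

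Of 16 genes for pyruvate entry into mitochondria and monocarboxylate transport, 4 rose and 5 fell in LY294002, and 1 rose and 3 fell in wortmannin, against 39.2% and 13.7% of all genes called. MPC1, a subunit of the mitochondrial pyruvate carrier, averaged 18.1 ± 1.48 CPM in LY294002 cells and 21.01 ± 1.5 CPM in wortmannin cells, against 28.7 ± 0.800 CPM in vehicle (SD, n = 3 each, edgeR log2 fold changes −0.66 and −0.45, adjusted p = 2.24e-11 and 1.83e-06). SLC16A4, a monocarboxylate transporter, averaged 23.3 ± 0.924 CPM in LY294002 cells and 20.0 ± 0.830 CPM in wortmannin cells, against 13.48 ± 0.173 CPM in vehicle (0.79 and 0.57, adjusted p = 6.79e-11 and 1.93e-06).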
